A study of Mus musculus with 16 samples.

Results

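The genes described here are 32 genes of fatty acid beta-oxidation in mitochondria and peroxisomes, chosen by name, out of 24091 genes in the expression table. All 32 were found in it under their symbols, and all 32 were among the 12155 genes with enough signal to be tested. By their best known role, 12 encode enzymes of the mitochondrial spiral, 3 carry its electrons to the respiratory chain, 7 activate fatty acids or move them and carnitine across membranes, 8 act in peroxisomes and 2 (Acad10 and Acad11) are less well characterised acyl-CoA dehydrogenases. RNA came from epithelial cells of the caecum of C57BL/6 mice, an inbred laboratory strain, in 3 groups of 3 libraries. Every mouse drank the vehicle, Splenda at 10 g/L in water. In the vehicle group nothing else was added and the mice received a mock gavage of 25% glycerol. In the ampicillin group the water also held the antibiotic ampicillin at 1 g/L for 7 days, with the same mock gavage on day 7. In the tributyrin group the mice received ampicillin in the same way and a gavage of tributyrin, a triglyceride of butyrate, on day 7. Tissue was taken 6 h after the gavage. No group received tributyrin without ampicillin. Whether each library stands for a mouse of its own is not stated in the labels, and the p-values rest on the spread among libraries, part or all of which may be technical.

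Beta-oxidation shortens fatty acids by repeated rounds of dehydrogenation, hydration, a further dehydrogenation and cleavage by a thiolase, each round releasing acetyl-CoA. Long fatty acids are first joined to coenzyme A and cross into the mitochondrion on carnitine, whereas very long and branched ones are shortened in peroxisomes, which hold their own set of enzymes. Epithelial cells of the large intestine are known for oxidising butyrate made by gut bacteria as a main fuel. Several genes of the pathway are known targets of the fatty acid receptor PPAR-alpha.

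Expression was given as TPM, transcript abundance scaled to a fixed total per library, which divides by transcript length, so levels of different genes can be compared, but keeps no record of sequencing depth. The depth of each library is therefore unknown, and precision is given only by the 3 libraries of a group. Each library held between 11746 and 12239 genes at 1 TPM or more. Across tested genes, log2 values correlated at 0.976 to 0.981 within groups and at 0.964 to 0.975 between groups. The defining markers of the epithelium were abundant in each library: the 10 genes of that list summed to between 14435 and 16148 TPM with vehicle, 11648 and 12082 TPM with ampicillin, and 12859 and 13769.8 TPM with tributyrin. Of other cell types that burn or store fat, the adipocyte genes Adipoq, Plin1 and Lep did not exceed 0.0286 TPM in any library. Cidec, the remaining gene of the adipocyte list, brought that list to 10.5 to 14.8 TPM with vehicle, 5.90 to 6.90 with ampicillin and 10.3 to 13.1 with tributyrin. The 5 smooth muscle genes summed to 3.53 to 5.84 TPM over all libraries, nearly all of it Tagln, with Acta2 at most at 0.125 TPM. The 4 hepatocyte genes summed to 53.5 to 58.7 TPM with vehicle, 70.0 to 73.5 with ampicillin and 91.3 to 102 with tributyrin, nearly all of it Ttr, a transport protein, while Alb did not exceed 0.468 TPM. The part of these genes' cell types in the results was not tested. Vehicle replicate 2 stood apart in genes of the small intestine: Apoa1 was at 75.2 TPM there and at 2.30 and 9.19 TPM in the other vehicle libraries. The 5 markers of Paneth cells summed to 1.01, 60.0 and 23.8 TPM in vehicle replicates 1 to 3. They summed to 0.142 to 0.426 TPM with ampicillin and 0.224 to 0.474 TPM with tributyrin. Counts of called genes among the 32 are given with and without vehicle replicate 2 where vehicle is compared, and other counts with it only. Leaving out vehicle replicate 2 does not remove the Paneth cell markers of vehicle replicate 3.

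Beta-oxidation genes were well expressed. Mean TPM over the 9 libraries ran from 3.31 for Acsl4 to 539 for Etfb, and 17 of the 32 genes averaged at least 100 TPM. After Etfb, the beta subunit of the electron transfer flavoprotein, came Hadh, the hydroxyacyl-CoA dehydrogenase of medium and short chains, and Etfa, the alpha subunit of the flavoprotein. Hadh stood at 435 ± 6.51 TPM with vehicle and Etfa at 362 ± 5.43 TPM (mean ± SD, n = 3 libraries here and below). Together the 32 genes took between 0.400% and 0.455% of all TPM. Libraries of a group lay close together: the SD was 4.57% of the mean in the median of 96 pairs of gene and group, and at most 16.1%, for Acsl4 with vehicle. Groups without overlap were common among all genes tested. Vehicle and ampicillin did not overlap for 40.8% of all genes and 18 of the 32. For ampicillin and tributyrin it was 42.6% and 19 of the 32, and for vehicle and tributyrin 41.7% and 16 of the 32. Separations given below are to be read beside these shares. All differences among the 32 genes were small. The largest change of any of the 32 genes in any comparison was 0.54 on the log2 scale, for Decr1.

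**Figure D1:**
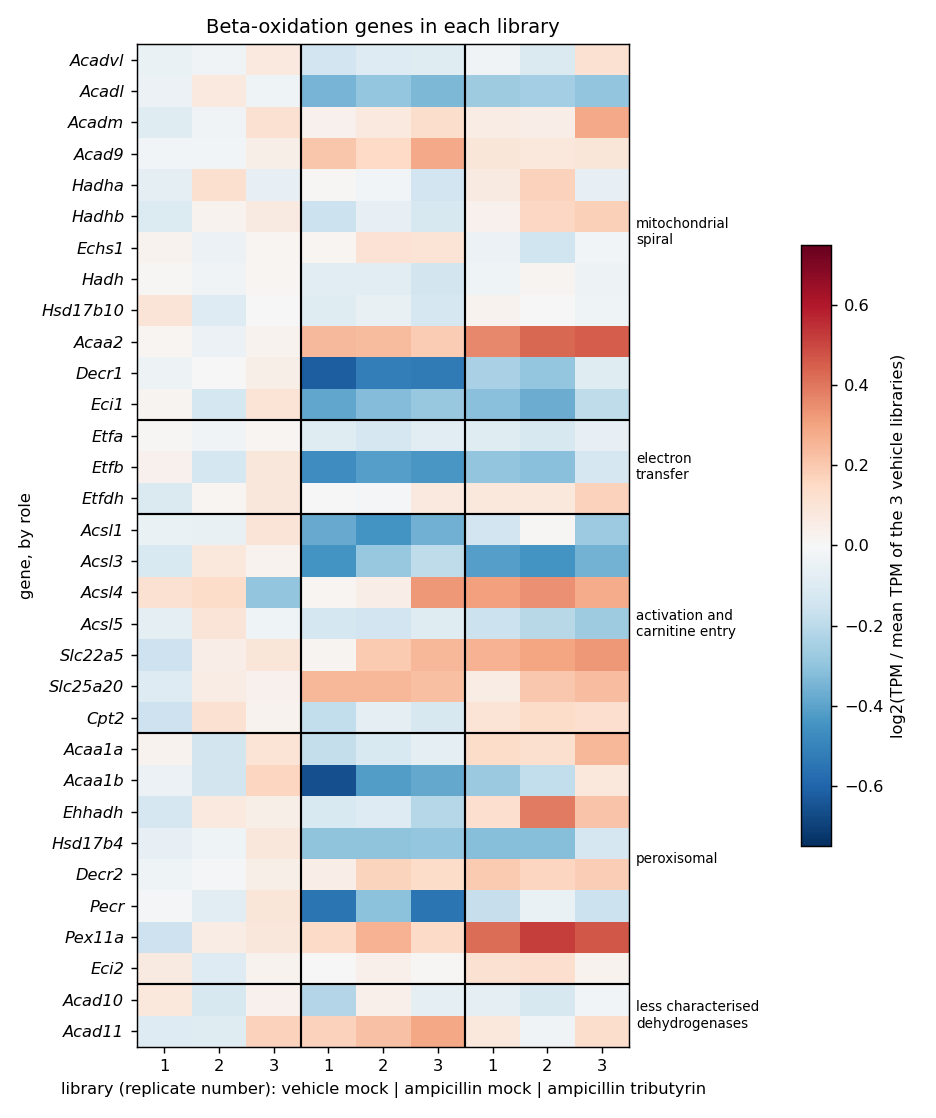
Heat map of the 32 genes (rows, ordered by role) in the 9 libraries (columns). Colour is log2 of the TPM over the mean of the 3 vehicle libraries, blue lower and red higher. Decr1, Etfb, Pecr and Acaa1b are bluest on average over the 3 ampicillin libraries, though not in each of them, and Pex11a and Acaa2 are reddest in the 3 tributyrin libraries.

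The first comparison asked how 7 days of ampicillin altered the pathway. With ampicillin 9 of the 32 genes fell and 3 rose at an adjusted p under 0.05. The genes that fell were the long chain dehydrogenase Acadl and the auxiliary enzymes Decr1 and Eci1, the electron carrier Etfb, the acyl-CoA synthetases Acsl1 and Acsl3, and the peroxisomal genes Acaa1b, Hsd17b4 and Pecr. The genes that rose were the medium chain thiolase Acaa2, the dehydrogenase Acad9 and the carnitine-acylcarnitine carrier Slc25a20. Decr1 fell furthest, from 52.9 ± 1.47 to 36.0 ± 1.32 TPM, and Slc25a20 rose furthest, from 169 ± 9.41 to 199.7 ± 1.80 TPM.

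These counts stand against a large background. Of all 12155 genes tested, 21.3% were called in this comparison, 11.0% higher and 10.2% lower. The median log2 fold change was -0.10 over the 32 genes and 0.02 over all genes tested. Without vehicle replicate 2 the call was 8 lower and 3 higher, and without ampicillin replicate 3 it was 9 lower and 1 higher. Ampicillin also moved cell type markers. Of the 10 epithelial markers 7 fell and 0 rose, of 10 goblet cell markers 4 fell and 0 rose (summed to 11073 to 14178 TPM with vehicle and 9614 to 10834 with ampicillin), and the 6 myeloid markers summed to 45.9 to 58.5 TPM with vehicle and 19.5 to 26.1 TPM with ampicillin. Of these 6 only 3 were tested: 1 fell, with a log2 fold change of -1.26, and 2 had fold changes above 0 and were not called. The lower myeloid sum is therefore not shared by all markers of that list. The part of these cell types in the results on beta-oxidation genes was not tested, and in tissue of several cells, fewer cells of a type and less RNA per cell cannot be told apart.

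The second comparison asked what tributyrin altered in ampicillin-treated mice. With tributyrin 9 of the 32 genes rose and 0 fell. Of the 8 peroxisomal genes 4 rose, Ehhadh, Acaa1a, Pecr and Pex11a, with a median log2 fold change of 0.28 over the 8. Of the 12 genes of the mitochondrial spiral Hadhb, Acaa2 and Decr1 rose (median 0.09), and of the 7 genes of activation and carnitine entry Acsl1 and Cpt2 rose (median 0.13). None of the 3 electron transfer genes was called (median 0.09), and neither of the less characterised dehydrogenases. Ehhadh, the peroxisomal bifunctional enzyme, rose furthest, from 35.5 ± 1.55 to 46.4 ± 4.42 TPM.

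Across all genes tested 23.2% were called with tributyrin, 15.6% higher and 7.54% lower, and the median log2 fold change was 0.05, against 0.09 over the 32 genes. The direction of calls depended on scaling. With each library centred on its median, 49.8% of all calls were higher, against 67.5% as deposited, and of the 32 genes 4 rose (Decr1, Ehhadh, Pecr and Pex11a) and 2 fell (Acad9 and Echs1). With quantile normalization 47.1% of all calls were higher, and 8 of the 32 genes rose and the same pair fell. The count of 9 also rested on single libraries, being 3 without ampicillin replicate 1, ampicillin replicate 3 or tributyrin replicate 2, and 5 without ampicillin replicate 2. Over all genes, 2819 calls became 1749 without ampicillin replicate 1, 1659 without ampicillin replicate 2 and 1574 without tributyrin replicate 2. Some markers of blood and immune cells were higher in the tributyrin libraries: the 3 measured erythroid markers summed to 94.3 to 134 TPM with tributyrin and 13.4 to 36.6 TPM with ampicillin, and 6 markers of T and intraepithelial lymphocytes to 21.6 to 41.5 and 10.9 to 18.7 TPM. The 6 myeloid markers overlapped, at 15.2 to 26.2 and 19.5 to 26.1 TPM. Alas2, the erythroid enzyme of haem synthesis, did not exceed 0.297 TPM in any library. Of the 10 epithelial markers 2 rose and 0 fell. The part of these cells in the results was not tested.

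**Figure D2:**
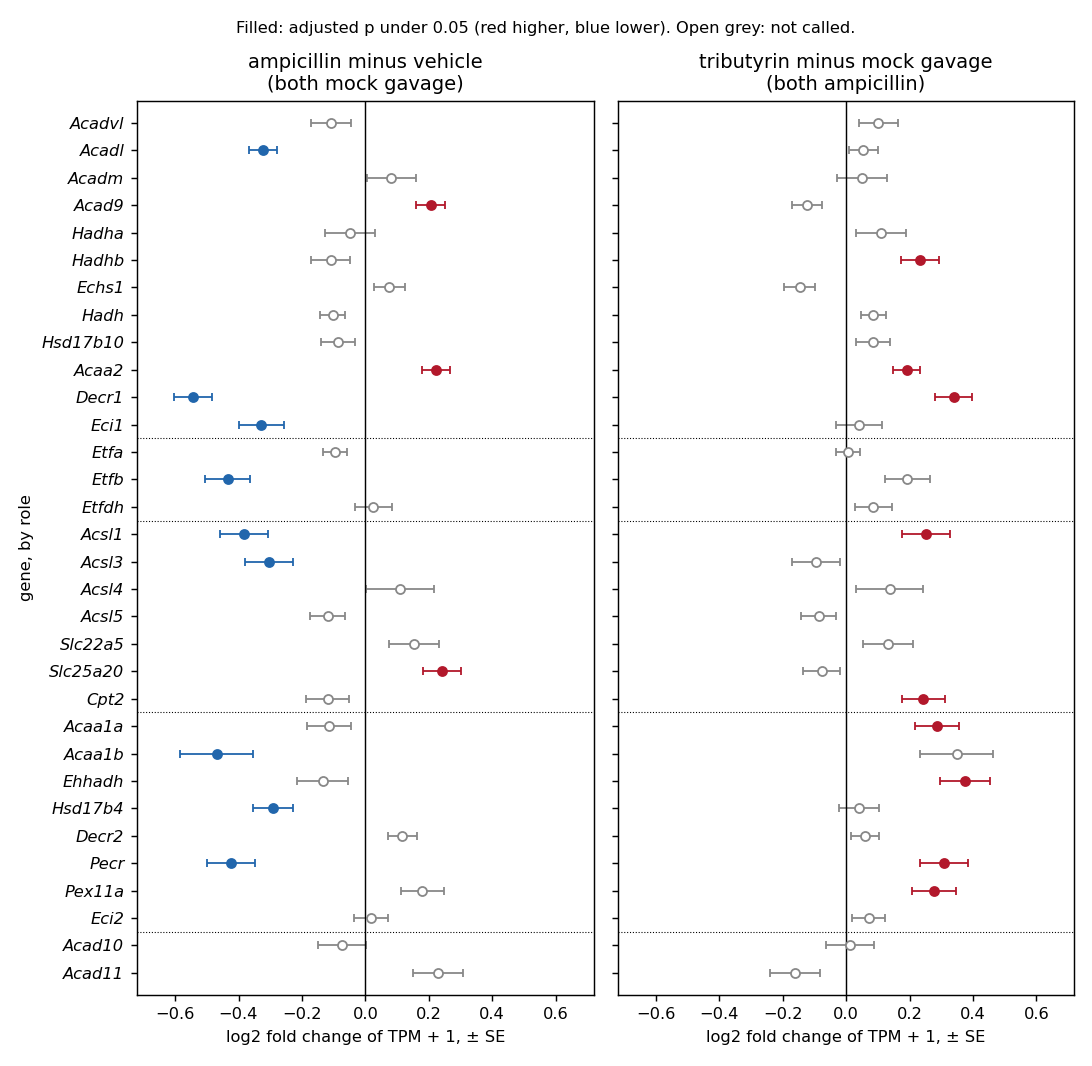
Log2 fold change ± SE of each of the 32 genes with ampicillin against vehicle (left) and with tributyrin against mock gavage in ampicillin-treated mice (right), in limma's model. Filled points passed an adjusted p of 0.05, 9 lower and 3 higher on the left and 9 higher on the right, and dotted lines separate the roles.

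The first step of the mitochondrial spiral is taken by acyl-CoA dehydrogenases that differ in chain length. Acadl, for long chains (gene ID 11363, chromosome 1, 66830839 to 66863309, whole gene in RefSeq on GRCm38.p6, as for each position below), stood at 157, 170.4 and 158 TPM in vehicle replicates 1 to 3, at 127, 132 and 128 TPM with ampicillin and at 135, 136 and 132 TPM with tributyrin. Every vehicle library lay above both other groups, which overlapped each other. The log2 fold change, on the scale of log2(TPM + 1), was -0.32 ± 0.045 (adjusted p = 0.00155) with ampicillin and 0.05 ± 0.045 (adjusted p = 0.414) with tributyrin, by limma with Benjamini-Hochberg adjustment as for each adjusted p below. Acadm, for medium chains, did not follow it: its libraries read 141, 147 and 163 TPM with vehicle, 154, 158 and 165 with ampicillin and 156, 156 and 183 with tributyrin. These groups overlapped, and neither comparison called the gene (adjusted p = 0.515 and 0.679). Acadvl, for very long chains, stood at 221 ± 10.1, 205 ± 3.87 and 221 ± 17.2 TPM in the 3 groups and was not called either (adjusted p = 0.261 and 0.268). Acad9, a dehydrogenase better known for assembling respiratory complex I, read 22.5, 22.5 and 23.5 TPM with vehicle, 26.3, 25.3 and 27.7 with ampicillin and 24.3, 24.1 and 24.2 with tributyrin. It rose with ampicillin by 0.21 ± 0.047 (adjusted p = 0.0151), a call that was lost without ampicillin replicate 3 (0.0567), and had a fold change of -0.12 ± 0.047 with tributyrin, past the threshold only where libraries were rescaled, by quantile normalization or median centring (adjusted p = 0.0908 as deposited).

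The trifunctional protein takes long chains through the last 3 steps of a round, with Hadha as its alpha subunit and Hadhb as its beta subunit, the thiolase. The 2 genes lie head to head on chromosome 5, Hadha at 30119423 to 30154980 on the minus strand and Hadhb at 30155253 to 30184593 on the plus strand, with 272 bases between their start sites in the RefSeq annotation. That stretch is shown because it is the whole upstream sequence of both genes up to the start of the other. It is chr5:30154981-30155252, build GRCm38.p6, the same mouse build as mm10, read 5′ to 3′ on the plus strand from Hadha towards Hadhb, with GC boxes (GGGCGG on either strand) in capitals.
Hadha-Hadhb: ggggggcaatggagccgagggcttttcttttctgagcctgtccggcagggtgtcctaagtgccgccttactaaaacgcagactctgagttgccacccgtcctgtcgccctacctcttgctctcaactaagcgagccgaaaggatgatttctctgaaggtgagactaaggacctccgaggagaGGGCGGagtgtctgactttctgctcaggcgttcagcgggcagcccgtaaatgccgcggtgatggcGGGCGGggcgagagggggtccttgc

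Hadhb read 198, 216 and 222 TPM with vehicle, 189.8, 203 and 195 with ampicillin and 217, 236 and 239.8 with tributyrin. Its tributyrin libraries lay above all 3 ampicillin libraries and overlapped the vehicle libraries. The fold change with tributyrin was 0.23 ± 0.061 (adjusted p = 0.0264), and the call was lost without ampicillin replicate 1 or 3 or tributyrin replicate 2 or 3 (0.0614 to 0.0889) and with median centring (0.0843). Hadha read 162, 184 and 163 TPM with vehicle, 171, 167 and 153 with ampicillin and 178, 191 and 162 with tributyrin. The groups overlapped, and its fold change with tributyrin was 0.11 ± 0.078 (adjusted p = 0.34). A difference between the partners was not shown: the ratio of Hadhb to Hadha within a library was 1.11, 1.22 and 1.27 with ampicillin and 1.22, 1.24 and 1.48 with tributyrin, and these overlapped (exact permutation test, two-sided p = 0.4).

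Shorter chains are handled by separate enzymes. Echs1, the short chain hydratase, stood at 183 ± 4.82, 193 ± 6.70 and 174 ± 7.92 TPM with vehicle, ampicillin and tributyrin. It was not called as deposited (adjusted p = 0.0629 with tributyrin), but was called lower with tributyrin in 4 alternatives, namely median centring, quantile normalization, rescaling without the abundant short RNA Mir6236, and array weights (0.0181 to 0.0471). Hadh at 435 ± 6.51, 405 ± 8.94 and 429.8 ± 9.34 TPM and Hsd17b10, a dehydrogenase that also serves in mitochondrial tRNA processing, at 166 ± 11.1, 156 ± 3.72 and 166 ± 3.17 TPM were called in neither comparison. Acaa2, the thiolase of medium chains (gene ID 52538), was the gene that rose in both. Its libraries read 231, 221 and 233 TPM with vehicle, 269.9, 269 and 260.1 with ampicillin and 292, 308 and 312 with tributyrin, so that no group overlapped another. The fold change was 0.22 ± 0.044 (adjusted p = 0.00802) with ampicillin and a further 0.19 ± 0.044 (adjusted p = 0.0166) with tributyrin. The tributyrin call was lost without ampicillin replicate 2 or 3 or tributyrin replicate 2 (0.0509 to 0.0600) and with median centring (0.131).

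Unsaturated fatty acids need auxiliary enzymes to rejoin the spiral. Decr1, the mitochondrial dienoyl-CoA reductase (gene ID 67460, chromosome 4, 15917240 to 15945377), read 51.5, 52.8 and 54.5 TPM with vehicle, 34.5, 36.9 and 36.6 with ampicillin and 44.6, 43.4 and 49.6 with tributyrin. The 3 groups did not overlap, and the tributyrin libraries lay between the others. It fell with ampicillin, with a log2 fold change of -0.54 ± 0.059 (adjusted p = 0.000434), and rose with tributyrin, with 0.34 ± 0.059 (adjusted p = 0.00521), and both calls held in each of the 19 alternatives. Eci1, an enoyl-CoA isomerase (gene ID 13177, chromosome 17, 24426683 to 24439316), read 214, 192 and 227 TPM with vehicle, 161, 168 and 173 with ampicillin and 169.9, 163 and 185 with tributyrin. The fold change with ampicillin was -0.33 ± 0.072 (adjusted p = 0.0129), a call lost without ampicillin replicate 1 (0.0502), and its tributyrin libraries overlapped the ampicillin libraries (adjusted p = 0.721). Eci2, an isomerase found in peroxisomes and mitochondria, stood at 63.9 ± 3.67, 64.7 ± 0.943 and 68.0 ± 2.59 TPM and was not called (adjusted p = 0.851 and 0.362).

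Electrons from the acyl-CoA dehydrogenases pass to the electron transfer flavoprotein, a dimer of the products of Etfa and Etfb, and on to ubiquinone through Etfdh. Etfb (gene ID 110826, chromosome 7, 43444072 to 43457800) read 641, 572 and 664 TPM with vehicle, 453, 470.1 and 463 with ampicillin and 509, 503 and 574 with tributyrin. All ampicillin libraries lay below all others, while vehicle and tributyrin overlapped. The fold change was -0.43 ± 0.071 (adjusted p = 0.00328) with ampicillin, called in each alternative, and 0.19 ± 0.071 (adjusted p = 0.0818) with tributyrin, called in none. Etfa, at 362 ± 5.43, 339 ± 5.70 and 340.3 ± 6.84 TPM, had a fold change of -0.10 ± 0.038 (adjusted p = 0.113) with ampicillin, and was called only with array weights (0.0357). Etfdh read 92.9, 101 and 106 TPM with vehicle, 100.1, 99.6 and 105 with ampicillin and 105, 106 and 113 with tributyrin, and was not called (adjusted p = 0.811 and 0.313). The ratio of Etfb to Etfa within a library does not depend on the scaling of libraries. It was 1.76, 1.61 and 1.81 with vehicle, 1.33, 1.41 and 1.35 with ampicillin and 1.50, 1.51 and 1.65 with tributyrin. The ampicillin ratios lay below all others (exact permutation test, two-sided p = 0.1 against each group, the smallest that 3 against 3 can give; 7 pairs of genes were compared in this way, so no adjusted p passes 0.05).

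**Figure D3:**
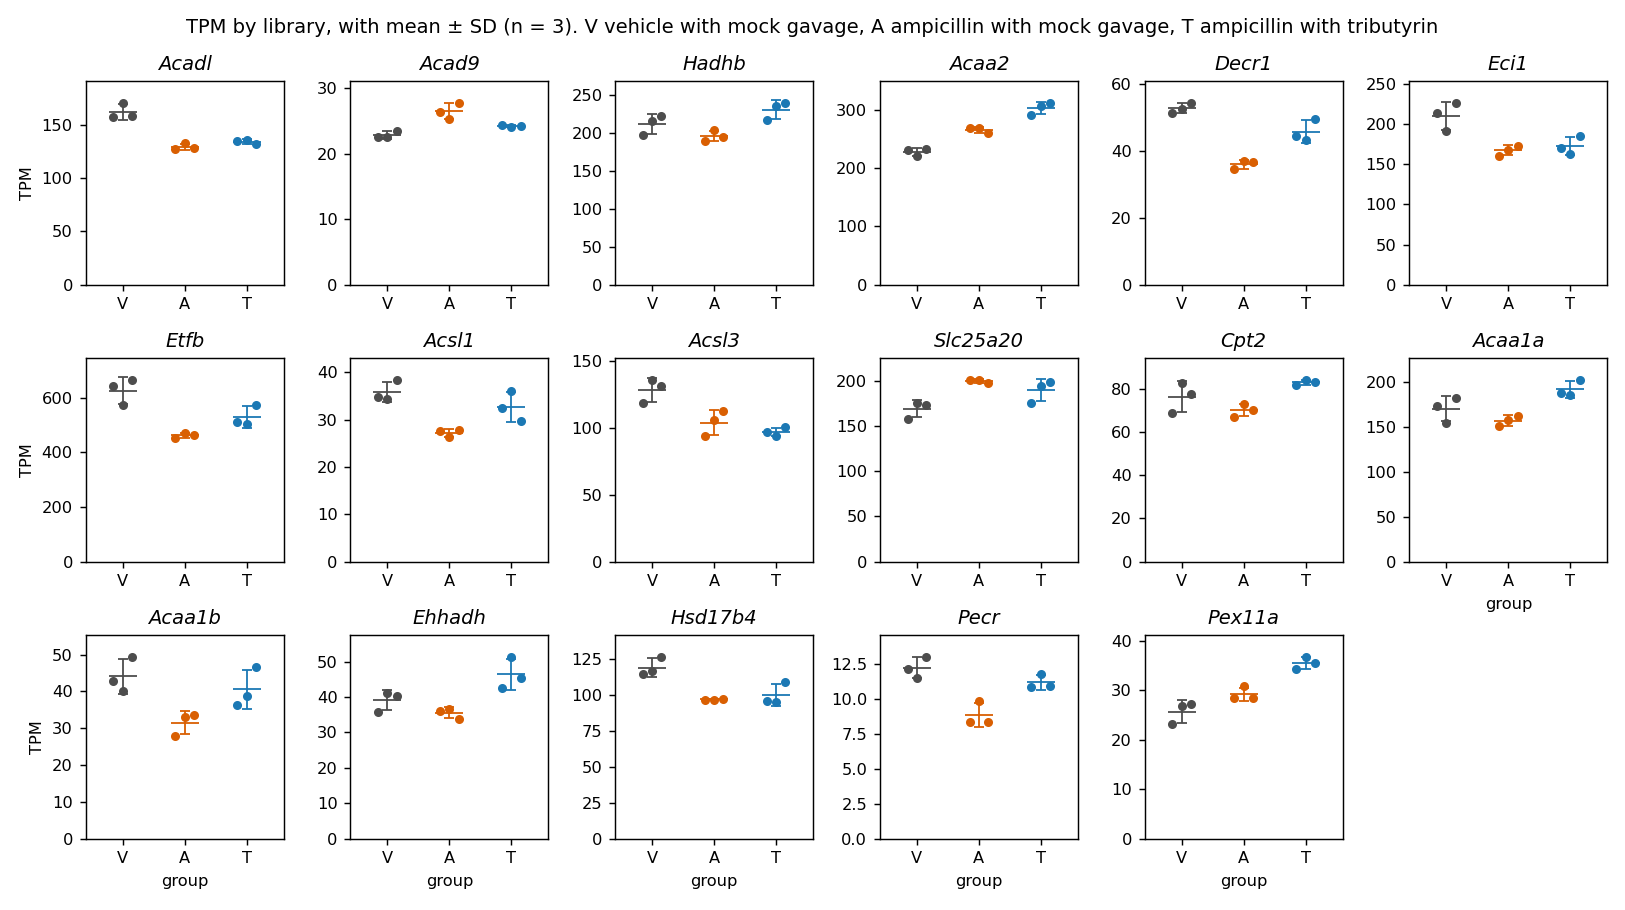
TPM of the 17 genes called in at least 1 of the first 2 comparisons, by library, with mean ± SD (n = 3). V is vehicle with mock gavage, A ampicillin with mock gavage and T ampicillin with tributyrin. All axes start at 0, and the spread of each group is narrow beside its level.

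Acyl-CoA synthetases of the Acsl family join long fatty acids to coenzyme A. Acsl3, known from lipid droplets and the endoplasmic reticulum, was the most abundant of the 4, followed by Acsl5, Acsl1 and Acsl4, and the levels of these neighbours did not overlap in any group. Acsl1 (gene ID 14081, chromosome 8, 46471037 to 46536051) read 34.7, 34.4 and 38.4 TPM with vehicle, 27.5, 26.2 and 27.9 with ampicillin and 32.4, 36.1 and 29.7 with tributyrin. The ampicillin libraries lay below all others. It fell with ampicillin, at -0.38 ± 0.075 (adjusted p = 0.00796), and rose with tributyrin by 0.25 ± 0.075 (adjusted p = 0.0429). The rise sat at the edge of the threshold and was lost in 12 of 19 alternatives, among them each leave-one-out fit but those without vehicle replicate 3 or tributyrin replicate 3 (0.0523 to 0.130). Acsl3 (gene ID 74205, chromosome 1, 78657825 to 78707743) read 118, 136 and 131 TPM with vehicle, 94.1, 106 and 113 with ampicillin and 96.6, 94.2 and 101 with tributyrin, with every vehicle library above the other groups. The fold change with ampicillin was -0.30 ± 0.076 (adjusted p = 0.0228), a call lost without vehicle replicate 2 or 3 or ampicillin replicate 1 or 2 (0.0585 to 0.0729) and with only the 2 groups in the model (0.0528). With tributyrin it had a fold change of -0.10 ± 0.076 (adjusted p = 0.397). Acsl5, the form linked to fat absorption in the intestine, stood at 57.1 ± 3.58, 52.4 ± 0.968 and 49.3 ± 1.85 TPM and Acsl4, which prefers arachidonic acid, at 2.98 ± 0.479, 3.28 ± 0.396 and 3.69 ± 0.0834 TPM, and neither was called in these 2 comparisons.

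Carnitine and its esters are moved by carriers. Slc22a5 imports carnitine into the cell, and stood at 23.6 ± 2.14, 26.3 ± 2.12 and 28.9 ± 0.684 TPM (adjusted p = 0.209 with ampicillin and 0.252 with tributyrin). Slc25a20 exchanges acylcarnitine for carnitine across the inner mitochondrial membrane (gene ID 57279, chromosome 9, 108662136 to 108684642). It read 158, 176 and 173 TPM with vehicle, 201, 201 and 198 with ampicillin and 176, 194 and 198 with tributyrin. The ampicillin libraries lay above the vehicle libraries, and tributyrin reached into ampicillin. The fold change with ampicillin was 0.24 ± 0.059 (adjusted p = 0.0213), lost without vehicle replicate 1 or any 1 of the ampicillin replicates (0.0559 to 0.0698) and with median centring (0.0528). Cpt2, which reforms acyl-CoA inside the mitochondrion (gene ID 12896, chromosome 4, 107903982 to 107923589), read 68.6, 82.6 and 77.6 TPM with vehicle, 67.1, 72.7 and 70.2 with ampicillin and 81.9, 84.1 and 83.2 with tributyrin. Its tributyrin libraries lay above the ampicillin libraries and overlapped the vehicle libraries. It rose with tributyrin by 0.24 ± 0.068 (adjusted p = 0.0338), a call lost without any 1 of the 6 libraries compared (0.0606 to 0.110), with median centring and with rescaling without Mir6236 (0.0531 to 0.0583).

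In peroxisomes the hydratase and the second dehydrogenase are joined in bifunctional proteins, Ehhadh and Hsd17b4, and the thiolases are Acaa1a and Acaa1b. Upstream sequence is shown for Ehhadh, the gene that rose furthest with tributyrin, and for Acaa1b, which fell furthest of the peroxisomal genes with ampicillin, with CCAAT boxes (CCAAT on either strand) and GC boxes in capitals. Each stretch is the 200 bases before the RefSeq start site in build GRCm38.p6, 5′ to 3′ on the strand of the gene: Acaa1b is chr9:119157094-119157293 on the minus strand and Ehhadh chr16:21787835-21788034 on the minus strand.
Acaa1b: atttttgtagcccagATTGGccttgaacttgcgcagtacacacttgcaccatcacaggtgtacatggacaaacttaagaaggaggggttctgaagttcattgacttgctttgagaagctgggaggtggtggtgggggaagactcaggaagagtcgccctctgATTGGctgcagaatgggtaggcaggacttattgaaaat
Ehhadh: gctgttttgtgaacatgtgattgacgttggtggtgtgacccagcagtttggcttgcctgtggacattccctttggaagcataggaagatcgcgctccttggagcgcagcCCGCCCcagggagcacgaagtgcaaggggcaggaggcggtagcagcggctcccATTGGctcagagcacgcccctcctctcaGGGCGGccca

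These letters hold 2 CCAAT and 0 GC boxes for Acaa1b, and 1 CCAAT and 2 GC boxes for Ehhadh. The RefSeq table gave a window of 300 bases, 250 before and 50 after the start site, for 28 of the 32 genes, in 29 windows. A GC box was found on either strand in 75.9% of these windows and in 35.7% of all 32851 windows in the table, and a CCAAT box in 48.3% and 37.4%. The nuclear receptor core AGGTCA was found in 10.3% and 16.3%, in Acadm, Acadvl and Echs1. A direct repeat of this core with a base between, the form that PPAR-alpha binds, searched as AGGNCANAGGNCA, was in 0 of the 29 windows and in 0.381% of all. At so low a share, 0 of 29 cannot tell these genes from others, and sequence outside the windows was not searched. These are matches of letters in short windows, not binding sites. The 32851 windows were not limited to expressed genes, whereas all 32 genes were expressed, so the shares are not like for like. The windows of Hadha and Hadhb share 228 bases, so the same match can count in both.

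Ehhadh (gene ID 74147, chromosome 16, 21761285 to 21787834) read 35.8, 41.2 and 40.3 TPM with vehicle, 36.1, 36.6 and 33.7 with ampicillin and 42.6, 51.3 and 45.4 with tributyrin. Every tributyrin library lay above every other library. The fold change with tributyrin was 0.37 ± 0.08 (adjusted p = 0.0122), called in each of the 19 alternatives, and with ampicillin it was -0.13 ± 0.08 (adjusted p = 0.282). Hsd17b4 (gene ID 15488) behaved otherwise, reading 114, 116 and 126 TPM with vehicle, 96.5, 96.6 and 97.4 with ampicillin and 95.4, 95.1 and 109 with tributyrin. It fell with ampicillin, at -0.29 ± 0.063 (adjusted p = 0.0122), with all vehicle libraries above all others, and had a fold change of 0.04 ± 0.063 (adjusted p = 0.681) with tributyrin.

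Acaa1a (gene ID 113868, chromosome 9, 119341028 to 119350296) read 174, 155 and 183 TPM with vehicle, 151, 158 and 163 with ampicillin and 188, 185 and 202 with tributyrin. The tributyrin libraries lay above all others. Its fold change was -0.11 ± 0.069 (adjusted p = 0.283) with ampicillin and 0.29 ± 0.069 (adjusted p = 0.0192) with tributyrin, the latter lost without ampicillin replicate 1 or 2 (0.0575 to 0.0699) and with median centring (0.0688). Acaa1b (gene ID 235674, chromosome 9, 119148043 to 119157093) read 42.7, 40.1 and 49.3 TPM with vehicle, 27.9, 33.0 and 33.7 with ampicillin and 36.4, 38.7 and 46.5 with tributyrin. Its ampicillin libraries lay below all others. It fell with ampicillin, at -0.47 ± 0.11 (adjusted p = 0.0206), lost without vehicle replicate 3 or ampicillin replicate 1 (0.0694 to 0.0695), and had 0.35 ± 0.11 (adjusted p = 0.0581) with tributyrin. The 2 genes are close relatives whose reads may be shared, so the division between them is uncertain. Their sum does not depend on it, and was 217, 195 and 232 TPM with vehicle, 179, 191 and 196 with ampicillin and 224, 224 and 249 with tributyrin, with tributyrin above all ampicillin libraries. Vehicle overlapped both other groups in the sum. The separation of ampicillin from vehicle in Acaa1b, and of tributyrin from vehicle in Acaa1a, was therefore not seen in it.

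Other peroxisomal genes were measured beside these enzymes. Pecr, which reduces enoyl-CoA (gene ID 111175, chromosome 1, 72259172 to 72284321), read 12.1, 11.5 and 13.0 TPM with vehicle, 8.34, 9.83 and 8.35 with ampicillin and 10.8, 11.8 and 10.9 with tributyrin. The ampicillin libraries lay below all others. It fell with ampicillin, at -0.42 ± 0.076 (adjusted p = 0.00511), and rose with tributyrin by 0.31 ± 0.076 (adjusted p = 0.0206), the rise being lost without ampicillin replicate 1 or 3 or tributyrin replicate 2 (0.0679 to 0.0779) and with quantile normalization (0.0508). Pex11a, which promotes division of peroxisomes and is a known PPAR-alpha target (gene ID 18631, chromosome 7, 79735957 to 79743131), read 23.1, 26.7 and 27.2 TPM with vehicle, 28.4, 30.8 and 28.4 with ampicillin and 34.4, 36.7 and 35.5 with tributyrin. No group overlapped another. The fold change was 0.18 ± 0.069 (adjusted p = 0.104) with ampicillin, not called, and 0.28 ± 0.069 (adjusted p = 0.0225) with tributyrin, lost without ampicillin replicate 1 or 3 or tributyrin replicate 2 (0.0692 to 0.0809). Decr2, the peroxisomal dienoyl-CoA reductase, stood at 42.2 ± 1.19, 45.8 ± 1.90 and 47.8 ± 0.637 TPM and was not called in these comparisons (adjusted p = 0.109 and 0.379). Acad10 and Acad11 stood at 12.1 ± 0.854, 11.4 ± 1.01 and 11.5 ± 0.416 TPM and at 73.3 ± 8.09, 85.7 ± 3.53 and 76.6 ± 4.14 TPM. Acad11 was called higher with ampicillin only without vehicle replicate 3 (0.0143) or with a replicate block (0.0281), against 0.0762 as fitted.

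**Figure D4:**
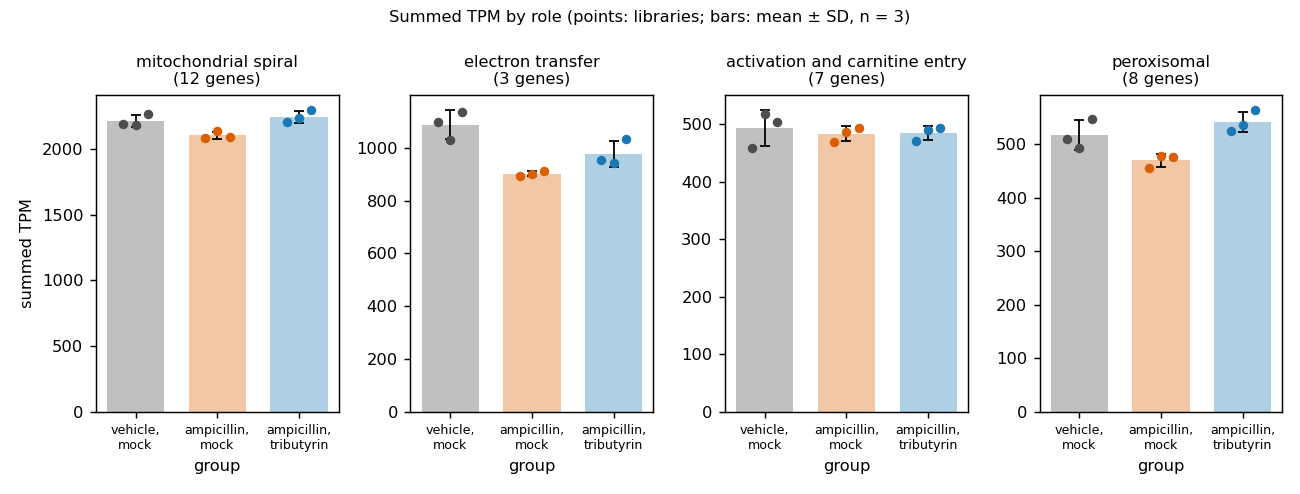
Summed TPM of the genes of 4 roles by library, with bars for the mean ± SD (n = 3). The peroxisomal sum is lowest in the 3 ampicillin libraries and highest on average with tributyrin, the electron transfer sum is highest on average with vehicle, and the activation and carnitine sum is level.

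The TPM of the genes of each role were also summed. The 8 peroxisomal genes summed to 510.0, 492 and 547 TPM with vehicle, 456, 478 and 475 with ampicillin and 525, 536 and 563 with tributyrin, so the ampicillin libraries lay below both other groups. The 12 genes of the mitochondrial spiral summed to 2192, 2183 and 2266 TPM, 2084, 2136 and 2089.9 TPM and 2204, 2234 and 2294 TPM in the same order, again lowest with ampicillin. The 3 electron transfer genes summed to 1098, 1029 and 1136 TPM, 893, 902 and 911 TPM and 955, 943 and 1034 TPM. The 7 genes of activation and carnitine entry summed to 459, 517 and 503 TPM, 468, 487 and 493 TPM and 469.7, 491 and 492 TPM, with all groups overlapping. Acad10 and Acad11 summed to 85.3 ± 8.35 TPM, 97.2 ± 4.10 TPM and 88.1 ± 4.55 TPM, and vehicle overlapped both other groups. These sums are descriptions with no test, and the most abundant genes weigh most in them.

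Ratios of related genes within a library were compared for 7 pairs. The ratio of Decr1 to Decr2, the dienoyl-CoA reductases of mitochondria and peroxisomes, was 1.25, 1.26 and 1.25 with vehicle, 0.789, 0.779 and 0.789 with ampicillin and 0.924, 0.921 and 1.03 with tributyrin, with no overlap between groups. The ratio of Acadl to Acadm was 1.11, 1.16 and 0.972 with vehicle, 0.825, 0.838 and 0.776 with ampicillin and 0.864, 0.871 and 0.719 with tributyrin. Vehicle lay above both other groups, which overlapped. The ratio of Acaa2 to Hadhb, the mitochondrial thiolases, was 1.17, 1.02 and 1.05 with vehicle, 1.42, 1.32 and 1.33 with ampicillin and 1.35, 1.30 and 1.30 with tributyrin, lowest with vehicle. The ratio of Acaa1a to Acaa1b was 3.88 ± 0.184 with vehicle, 5.01 ± 0.346 with ampicillin and 4.77 ± 0.408 with tributyrin, and rests on the uncertain division of reads between them. Each of these ratios had p = 0.1 between vehicle and ampicillin in the exact permutation test, two-sided, which cannot go lower.

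**Figure D5:**
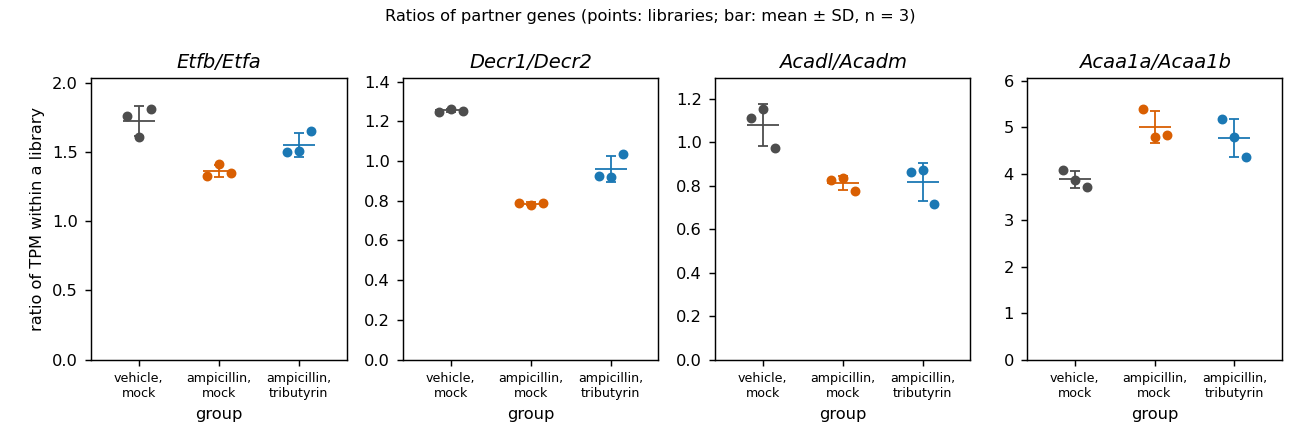
Ratio of TPM of 4 pairs of genes within each library, with mean ± SD (n = 3). Etfb to Etfa and Decr1 to Decr2 are lowest with ampicillin and intermediate with tributyrin, Acadl to Acadm is lower in both ampicillin-treated groups, and Acaa1a to Acaa1b is higher in both. The division of reads between Acaa1a and Acaa1b is uncertain.

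The third comparison set ampicillin with tributyrin against vehicle with mock gavage. It shares libraries with the first 2 comparisons, so its values are not separate evidence. Of the 32 genes 7 were lower (Acadl, Decr1, Eci1, Etfb, Acsl3, Acsl5 and Hsd17b4) and 4 were higher (Acaa2, Slc22a5, Decr2 and Pex11a). Across all genes tested 28.3% were called, 19.1% higher and 9.21% lower, and the median log2 fold change was 0.08, against 0.03 over the 32 genes. Pex11a was higher by 0.46 ± 0.069 (adjusted p = 0.00245) and Acaa2 by 0.41 ± 0.044 (adjusted p = 0.000517). Among the lower genes, Acsl3 had -0.40 ± 0.076 (adjusted p = 0.00644), Eci1 -0.29 ± 0.072 (adjusted p = 0.0198) and Acadl -0.27 ± 0.045 (adjusted p = 0.0039). The calls on Acadl, Acaa2, Acsl3 and Pex11a held in each of the 19 alternatives. The other 7 each depended on single libraries. Decr1 stayed below vehicle, at -0.20 ± 0.059 (adjusted p = 0.0332), lost without any vehicle replicate, ampicillin replicate 2 or tributyrin replicate 1 or 2 (0.0519 to 0.112). Etfb had -0.24 ± 0.071 (adjusted p = 0.0353), lost in each leave-one-out fit but those without vehicle replicate 2 or tributyrin replicate 3 (0.0520 to 0.116). Acsl5 read 54.4, 61.1 and 55.8 TPM with vehicle and 51.1, 49.4 and 47.4 with tributyrin, with -0.21 ± 0.054 (adjusted p = 0.0241), lost without vehicle replicate 2 or tributyrin replicate 2 or 3 (0.0540 to 0.0663). Slc22a5 read 21.1, 24.5 and 25.2 TPM and 28.2, 28.9 and 29.6 TPM, with 0.29 ± 0.078 (adjusted p = 0.0274), lost without vehicle replicate 1 or any tributyrin replicate (0.0559 to 0.0749) and with median centring (0.0615). Neither gene overlapped between these groups. The calls on Eci1 (0.0573 to 0.0721), Hsd17b4 (0.0669 to 0.0729) and Decr2 (0.0525 to 0.0655) were each lost without tributyrin replicate 1 or 2, and also without vehicle replicate 1 or 3 for Eci1, vehicle replicate 3 for Hsd17b4 and vehicle replicate 1 or 2 for Decr2. Decr2 was not called with median centring either (0.116). With only the 2 compared groups in the model, 2 of the 32 genes were lower. The count of lower genes was 4 without vehicle replicate 1, 3 without vehicle replicate 3 or tributyrin replicate 1 and 2 without tributyrin replicate 2, and that of higher genes 2 without vehicle replicate 1 or tributyrin replicate 2. Over all genes, 3444 calls became 2061 without tributyrin replicate 2. Genes that had fallen with ampicillin but were not called here were Acsl1 (0.228), Pecr (0.285) and Acaa1b (0.464), and a p above the threshold does not show that their levels were the same. Without vehicle replicate 2 the call was 5 lower and 3 higher. With each library centred on its median it was 7 lower and 2 higher, and 49.2% of all calls were higher, against 67.5% as deposited and 50.3% with quantile normalization.

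Other genes of fatty acid oxidation were taken from a list of 97, of which 85 were tested. With ampicillin 23 fell and 10 rose, and with tributyrin 16 rose and 6 fell. Over all genes tested 10.2% fell and 11.0% rose with ampicillin, and 15.6% rose and 7.54% fell with tributyrin, and the counts by group below are to be read beside these shares. Short and branched chain enzymes, mostly of mitochondria, accounted for 10 of the 23 that fell, of 14 tested, with 0 rising (median -0.28). Acss2, which is cytosolic, was among those that fell, and also among those that rose with tributyrin. Acads, the dehydrogenase of short chains such as butyrate, stood at 367 ± 19.8 TPM with vehicle, 289 ± 7.74 with ampicillin and 304 ± 7.82 with tributyrin, a fold change of -0.34 ± 0.05 (adjusted p = 0.00189) with ampicillin and 0.07 ± 0.05 (adjusted p = 0.315) with tributyrin. With tributyrin 6 of the 14 rose and 1 fell (median 0.14). Acadsb, the dehydrogenase of short branched chains, fell from 9.22 ± 0.373 TPM with vehicle to 5.95 ± 0.315 with ampicillin (-0.56 ± 0.065, adjusted p = 0.00063). It rose to 9.90 ± 0.652 TPM with tributyrin (0.65 ± 0.065, adjusted p = 0.000618), and was not called in the third comparison (adjusted p = 0.324). Acsm3, a medium chain acyl-CoA synthetase, fell from 19.4 ± 2.81 to 10.6 ± 1.13 TPM with ampicillin (-0.80 ± 0.12, adjusted p = 0.0022).

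Cpt1a, the carnitine palmitoyltransferase at which entry of long chains into mitochondria is controlled, went from 121 ± 13.7 TPM with vehicle to 94.4 ± 4.34 with ampicillin (-0.35 ± 0.084, adjusted p = 0.0181) and stood at 97.6 ± 6.17 with tributyrin (adjusted p = 0.734). Acacb, the acetyl-CoA carboxylase whose product inhibits that step, fell with ampicillin from 4.59 ± 0.299 to 3.45 ± 0.160 TPM (-0.33 ± 0.065, adjusted p = 0.00787). It rose to 6.10 ± 0.141 TPM with tributyrin (0.67 ± 0.065, adjusted p = 0.000544), and was higher in the third comparison (0.34 ± 0.065, adjusted p = 0.00603). Of 35 other peroxisomal genes tested, 5 fell and 6 rose with ampicillin, and 4 rose and 2 fell with tributyrin, near the shares over all genes (10.2% and 11.0%, then 15.6% and 7.54%). Hao2, a peroxisomal hydroxyacid oxidase, fell furthest with ampicillin, from 519 ± 29.3 to 277 ± 17.9 TPM (-0.90 ± 0.08, adjusted p = 0.000161), and had -0.70 ± 0.08 (adjusted p = 0.000691) in the third comparison. Phyh, which starts oxidation of phytanic acid, stood at 238 ± 10.8 TPM with vehicle, 144 ± 6.37 with ampicillin and 158 ± 5.27 with tributyrin. It fell with ampicillin (-0.72 ± 0.053, adjusted p = 5.85e-05) and was not called with tributyrin against mock gavage (0.14 ± 0.053, adjusted p = 0.0957). In the third comparison it had -0.59 ± 0.053 (adjusted p = 0.000246).

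Among genes of uptake, binding and thioester cleavage 2 of 12 fell and 1 rose with ampicillin, and 4 rose and 1 fell with tributyrin, against 10.2% lower and 11.0% higher, and 15.6% higher and 7.54% lower, over all genes. Acot1, a cytosolic acyl-CoA thioesterase, fell with ampicillin from 22.1 ± 1.98 to 16.1 ± 1.23 TPM (-0.43 ± 0.091, adjusted p = 0.0112). It rose to 29.6 ± 2.83 TPM with tributyrin (0.83 ± 0.091, adjusted p = 0.000833), and was higher in the third comparison (0.41 ± 0.091, adjusted p = 0.0125). Acsf2, an acyl-CoA synthetase, fell with ampicillin from 334 ± 16.4 to 198 ± 14.5 TPM (-0.75 ± 0.064, adjusted p = 0.000138). Of 17 regulators 4 fell and 3 rose with ampicillin, and 1 rose and 2 fell with tributyrin, against 10.2% and 11.0%, and 15.6% and 7.54%, over all genes. Ppara stood at 7.84 ± 1.08, 7.53 ± 0.419 and 8.26 ± 0.392 TPM in the 3 groups and was not called (adjusted p = 0.781 and 0.391). Ppard fell with ampicillin from 102 ± 7.26 to 85.3 ± 3.04 TPM (-0.25 ± 0.072, adjusted p = 0.0411) and stood at 86.9 ± 7.01 TPM with tributyrin. In the third comparison Pparg was lower with ampicillin and tributyrin, at 118 ± 10.2 TPM, than with vehicle, at 169 ± 3.43 TPM (-0.52 ± 0.066, adjusted p = 0.0012). That comparison does not separate tributyrin from ampicillin. Esrra, an orphan receptor that activates oxidative genes, stood at 137 ± 11.0, 155 ± 7.05 and 142 ± 2.05 TPM (adjusted p = 0.0731 and 0.19).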

How the data were processed

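RNA was measured in 9 of the 16 samples of the series, 3 for each of 3 groups taken from the sample titles. The 7 chromatin samples were not analysed here. The table the authors deposited gives TPM per gene and library. Salmon 0.8.2, DESeq2 1.20.0 and build mm10 are named in the submitters' processing notes with no role, the annotation, strand setting and filters being not given in the sources used here. Library totals were 999833 to 999866 TPM. TPM keeps no depth, so no counting error could be given and no count model was used. TPM is relative, and the short RNA Mir6236 took 1.24% to 4.48% of it in the 6 mock libraries and 0.705% to 0.863% with tributyrin. Without strand, overlapping genes cannot be told apart.

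Genes with a mean of at least 1 TPM over the 9 libraries were kept (12155 of 24091). A model with 1 mean per group, without replicate block, was fitted to log2(TPM + 1) in limma 3.58.1 under R 4.3.3, with variances moderated along a trend and 6 residual degrees of freedom, and p-values were adjusted by Benjamini-Hochberg over all genes tested. A gene was called at an adjusted p under 0.05. Fold changes on this scale understate low genes. The labels do not say that replicate numbers pair the libraries. Of 9 same-numbered pairs 1 had deviations correlated above 0.1, which does not exclude pairing. The 32 genes and all lists were chosen with earlier results of these data known. Every one of the 32 is named, with values by library for those called in either of the first 2 comparisons and for Hadha, Hadhb and Acadm. Of the other pathway genes, Cpt1a, Acads, Ppara, Ppard and Esrra are named in any case, and the 3 called genes of largest change in each comparison. A further gene that the rule names in any case is not reported here. Positions and promoters are from RefSeq, assembly GRCm38.p6, in which all 32 genes were matched by ID. Figures were drawn with matplotlib 3.10.9.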

Additional observations from a re-analysis of the deposited data

How the results depend on the processing

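Each result was recomputed under 19 alternatives: 2 other pseudocounts, 2 other filters, 3 other scalings, 2 groups only, a replicate block, array weights and 9 fits that each left out a library. Of 607 alternative values for the 32 genes in each comparison, 0 reversed a call. With ampicillin, 7 of 12 calls held in each alternative (Acadl, Acaa2, Decr1, Etfb, Acsl1, Hsd17b4 and Pecr), with tributyrin 2 of 9 (Decr1 and Ehhadh), and against vehicle 4 of 11 (Acadl, Acaa2, Acsl3 and Pex11a). With ampicillin, leaving out a library gave 1 to 4 higher and 6 to 10 lower of the 32, the 1 without ampicillin replicate 3. With tributyrin it gave 3 to 9 higher and 0 lower, and 1574 to 2962 calls over all genes, the lowest without tributyrin replicate 2. For tributyrin against vehicle it gave 2 to 4 higher and 2 to 6 lower, and 2061 to 3766 calls over all genes. With tributyrin, median centring gave 4 higher and 2 lower, quantile normalization 2 lower, rescaling without Mir6236 1 lower, and array weights 1 lower and 4271 calls over all genes, against 2819. Against vehicle, median centring gave 2 higher, and only the 2 compared groups 2 lower. The replicate block gave 7 higher, adding Slc25a20, Acaa1a and Ehhadh. It also added Acad11 with ampicillin and Acaa1b with tributyrin, and took away Acsl1 with tributyrin. Whether the numbers mark a shared litter or day is not stated in the labels. Same-numbered libraries had deviations correlated at -0.0498 to 0.108 and other pairs at -0.117 to 0.0748. Of 9 libraries 3 correlated best with their own number in both other groups, so pairing is not excluded. The causes of the differences between alternatives were not tested. With unknown depth, a difference that missed the threshold was not detectable here, which does not show that it is absent.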
